A study of Mus musculus with 36 samples.

Results

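The E protein genes Tcf3, Tcf4 and Tcf12 and the Id genes Id1, Id2 and Id3 were followed across 8 cell populations sorted from marrow and thymus. The 6 genes were chosen by name, and every probe set annotated to exactly 1 of them was read. That gave 19 of the 34945 probe sets that name a single gene, with 3 for Tcf3, 6 for Tcf4, 5 for Tcf12, 1 for Id1, 3 for Id2 and 1 for Id3. The 6 genes were tested among 18193 genes on 36 one-colour arrays of the mouse transcriptome, and all values are log2 expression values. All cells came from C57BL6 mice of both sexes with an age label of 1 week, and no group carries a treatment or an engineered allele in the labels. Haematopoietic stem cells (LSKFlt3-CD48-CD150+, HSC), marrow progenitors labelled as thymic seeding cells (LSKFlt3hi IL7R+, LSK), early thymic progenitors (ETPFlt3hi, ETP) and DN3 thymocytes had 6 arrays each, DN2Kit+ thymocytes (DN2) 3, common lymphoid progenitors (CLP) 4, B cell progenitors (pro-B) 3, and the arrays titled adult ETP 2. The adult ETP arrays carry the same 1 week age label as the rest, so the contrast of ages rests on the titles alone.

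E proteins are basic helix-loop-helix transcription factors that bind the E-box of DNA as dimers. Id proteins have the helix-loop-helix but lack the basic region, so a dimer of an Id and an E protein does not bind DNA. In lymphoid development E proteins act on the recombinase genes, on the surrogate light chain and B lineage regulators, and on the pre-T-cell receptor gene Ptcra. Tcf3 is best known for its part in the B lineage, Tcf12 for its part in thymocytes, and Tcf4 for its part in plasmacytoid dendritic cells. Id3 is induced by receptor signals through Egr factors in thymocytes, Id1 by BMP signals in many cell types, and Id2 is required for natural killer and innate lymphoid cells.

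Promoters of 3 members that differed between pro-B cells and DN3 thymocytes are shown because the E-box, CANNTG with N for any base, is the site that the family itself binds. The sequences are the 250 bases before the start site in RefSeq on GRCm38.p6, on the strand of the gene and 5′ to 3′, with each E-box in capitals. They lie at chr10:80433636-80433885 on the minus strand for Tcf3, at chr9:72111820-72112069 on the minus strand for Tcf12 and at chr4:136143572-136143821 on the plus strand for Id3. Tcf12 has 3 start sites in the table, and the first is shown.
Tcf3: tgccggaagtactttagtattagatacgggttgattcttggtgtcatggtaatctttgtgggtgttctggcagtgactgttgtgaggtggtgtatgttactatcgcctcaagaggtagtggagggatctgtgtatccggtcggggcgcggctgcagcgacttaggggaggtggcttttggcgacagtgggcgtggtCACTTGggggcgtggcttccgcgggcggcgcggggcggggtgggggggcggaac
Tcf12: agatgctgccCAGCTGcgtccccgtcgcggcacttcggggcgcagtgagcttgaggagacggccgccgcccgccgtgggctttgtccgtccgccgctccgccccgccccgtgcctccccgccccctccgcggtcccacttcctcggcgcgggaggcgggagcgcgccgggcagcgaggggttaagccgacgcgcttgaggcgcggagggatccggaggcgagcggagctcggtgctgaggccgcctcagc
Id3: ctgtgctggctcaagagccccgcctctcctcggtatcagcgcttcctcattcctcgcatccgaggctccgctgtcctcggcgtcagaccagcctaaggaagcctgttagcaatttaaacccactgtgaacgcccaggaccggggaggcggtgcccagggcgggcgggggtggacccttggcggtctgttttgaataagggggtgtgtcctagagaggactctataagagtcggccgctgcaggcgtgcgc
Tcf3 held 1 E-box (CACTTG), Tcf12 held 1 (CAGCTG) and Id3 held 0 in this window. The second Tcf12 start site had 1 (CAAGTG) and the third had 0, and the Id2 window held 1 (CAGCTG). An E-box lay in 66.2% of the 32851 windows of this length in the table, and the CAGCTG form in 13.0%. The EGR motif GCGTGGGCG (0.536% of all windows) and the RBPJ motif GTGGGAA (5.42%), searched on both strands, were in none of these windows. Promoters were matched for 4 of the 6 members, without Id1 and Tcf4. A match describes letters only and does not show binding.

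The arrays fall into deposit set 1 (15 arrays of 5 populations, described as pools of several mice) and deposit set 2 (21 arrays of 7 populations), whose medians of 5.12 to 5.22 and 5.84 to 5.95 show that they were normalized apart. HSC, LSK, ETP and DN3 had 3 arrays in each set, DN2 was only in set 1, and CLP, pro-B and adult ETP were only in set 2, so levels are compared within a set. Nothing in the labels says that arrays of set 2 came from separate animals, so p-values measure the spread between arrays, which may be technical. Il2ra, which encodes CD25, averaged 12.27 in DN2 and 12.20 in DN3 of set 1, and the B lineage factor gene Ebf1 averaged 10.80 in pro-B cells. HSC were sorted as Flt3- and CD48-, and the HSC arrays of set 1 ran from 5.08 to 5.90 for Flt3 and from 3.04 to 3.81 for Cd48. On the scale of set 2 the HSC arrays ran from 6.09 to 7.54 for Flt3 and from 4.88 to 7.47 for Cd48. The RNA of Flt3 thus reached above the array medians in both sets, and that of Cd48 only in set 2. LSK of set 2 ran from 11.07 to 11.22 and from 9.85 to 10.33. All 6 measured T lineage markers lay above the array median in DN2 and DN3, and all 6 measured B lineage markers did so in pro-B, CLP and LSK. These are bulk samples, in which fewer cells of a type and less RNA per cell cannot be told apart.

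A member was called when its adjusted p was under 0.05 (limma, Benjamini-Hochberg over all 18193 genes). Over 10 comparisons of 6 genes, 16 of 60 differences were called. The counts ran from 0 of 6, between LSK and CLP and between ETP and adult ETP, to 4 of 6 between pro-B and DN3. Between HSC and LSK 3 of 6 members were called, beside 26.1% of all genes. From LSK to ETP 1 of 6 was called (3.50% of all genes), and from CLP to ETP 1 of 6 (2.76%). In all 3 of these steps Tcf4 was among the called members. Inside the thymus 1 of 6 was called from ETP to DN2 (5.13% of all genes), 1 of 6 from DN2 to DN3 (6.12%), and 3 of 6 from ETP to DN3 (16.1%). Tcf12 accounted for the first of these steps and Id3 for the second. From CLP to pro-B 2 of 6 were called (17.0% of all genes), and between pro-B and DN3 4 of 6 (23.4%). None of the 6 was called between LSK and CLP (0.572% of all genes) or between ETP and adult ETP (0.440%). At an unadjusted limma p under 0.05, 0 of 6 passed between LSK and CLP and 2 of 6, Tcf4 and Tcf12, between ETP and adult ETP. The share of all genes at that unadjusted threshold is not given, so these counts cannot be set against it. By gene, Tcf4 and Id3 were called in 5 of 10 comparisons each, Tcf12 in 3, Tcf3 in 2, Id1 in 1 and Id2 in 0.

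Tests of the 19 single probe sets were adjusted over all 34945 probe sets (limma, Benjamini-Hochberg). From HSC to LSK 10 of 19 were called (24.7% of all probe sets), from LSK to ETP 6 (3.05%), from CLP to ETP 5 (2.21%) and between LSK and CLP 0 (0.518%), where 0 of 19 also passed at an unadjusted p under 0.05. In the thymus 4 were called from ETP to DN2 (4.44%), 3 from DN2 to DN3 (4.86%) and 10 from ETP to DN3 (14.3%). From CLP to pro-B 4 were higher (9.16%) and 4 lower (5.80%), between pro-B and DN3 15 were called (21.3%), and between ETP and adult ETP 1 (0.386%). No share of all probe sets is given for the unadjusted count. The probe sets of a gene share its transcript and are not independent readings. Where several probe sets of a member were called in a comparison, they went the same way.

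**Figure D1:**
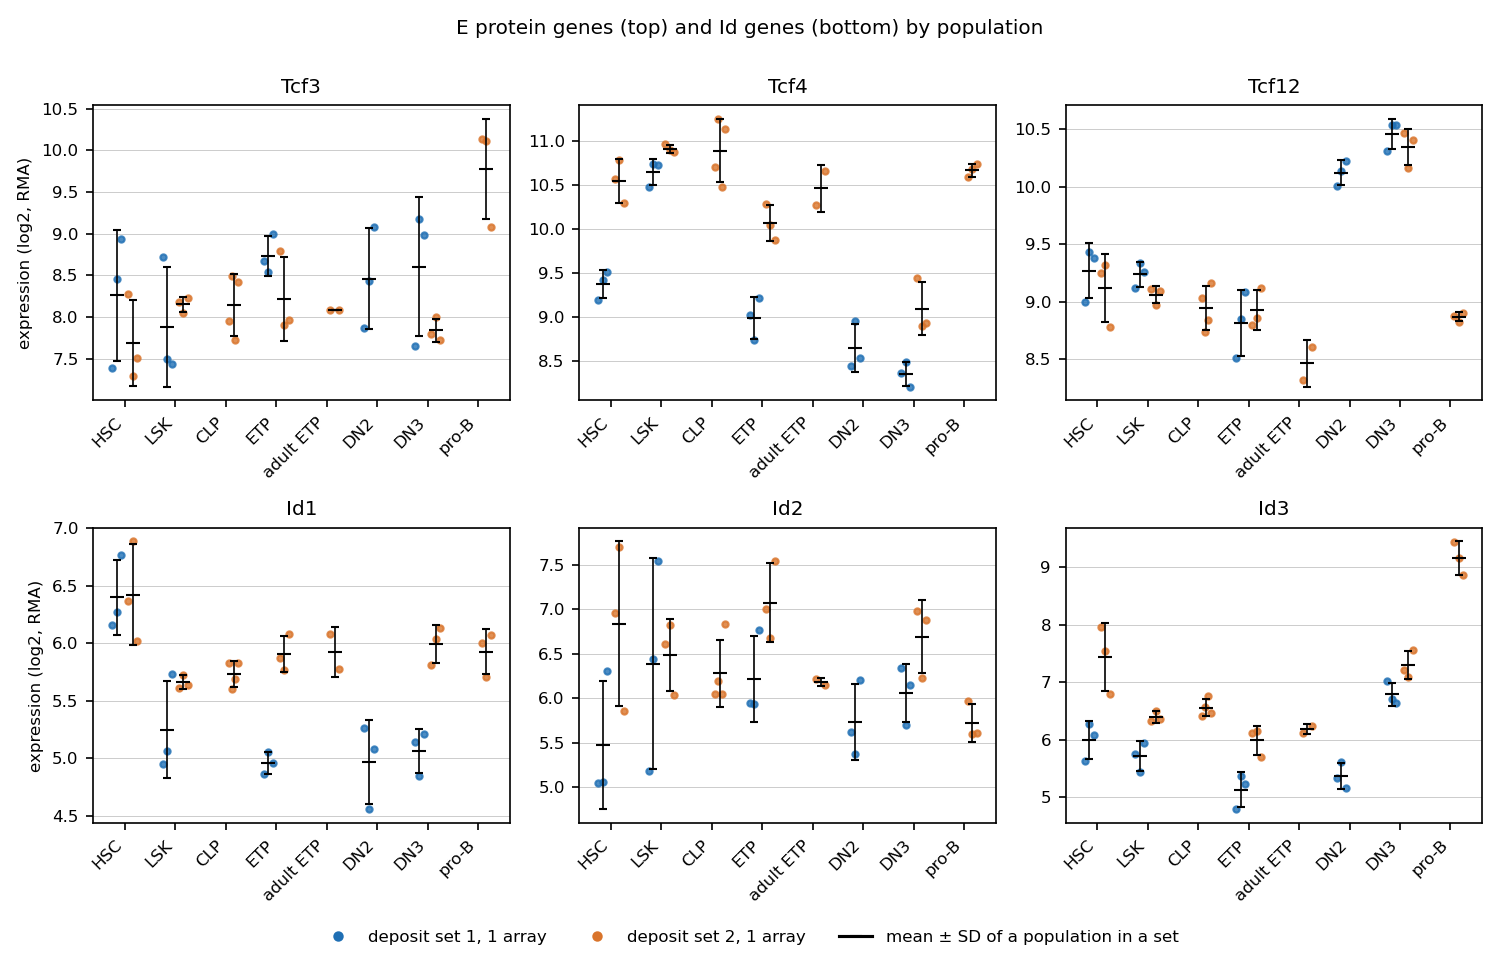
Log2 expression of the 6 genes by population, with 1 point per array, coloured by deposit set, and bars for the mean ± SD of a population within a set. Tcf12 lies above 10 in DN2 and DN3 only, Id3 is highest in pro-B cells at 8.87 to 9.45, and the Id1 arrays of HSC lie above those of LSK in both sets.

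**Figure D2:**
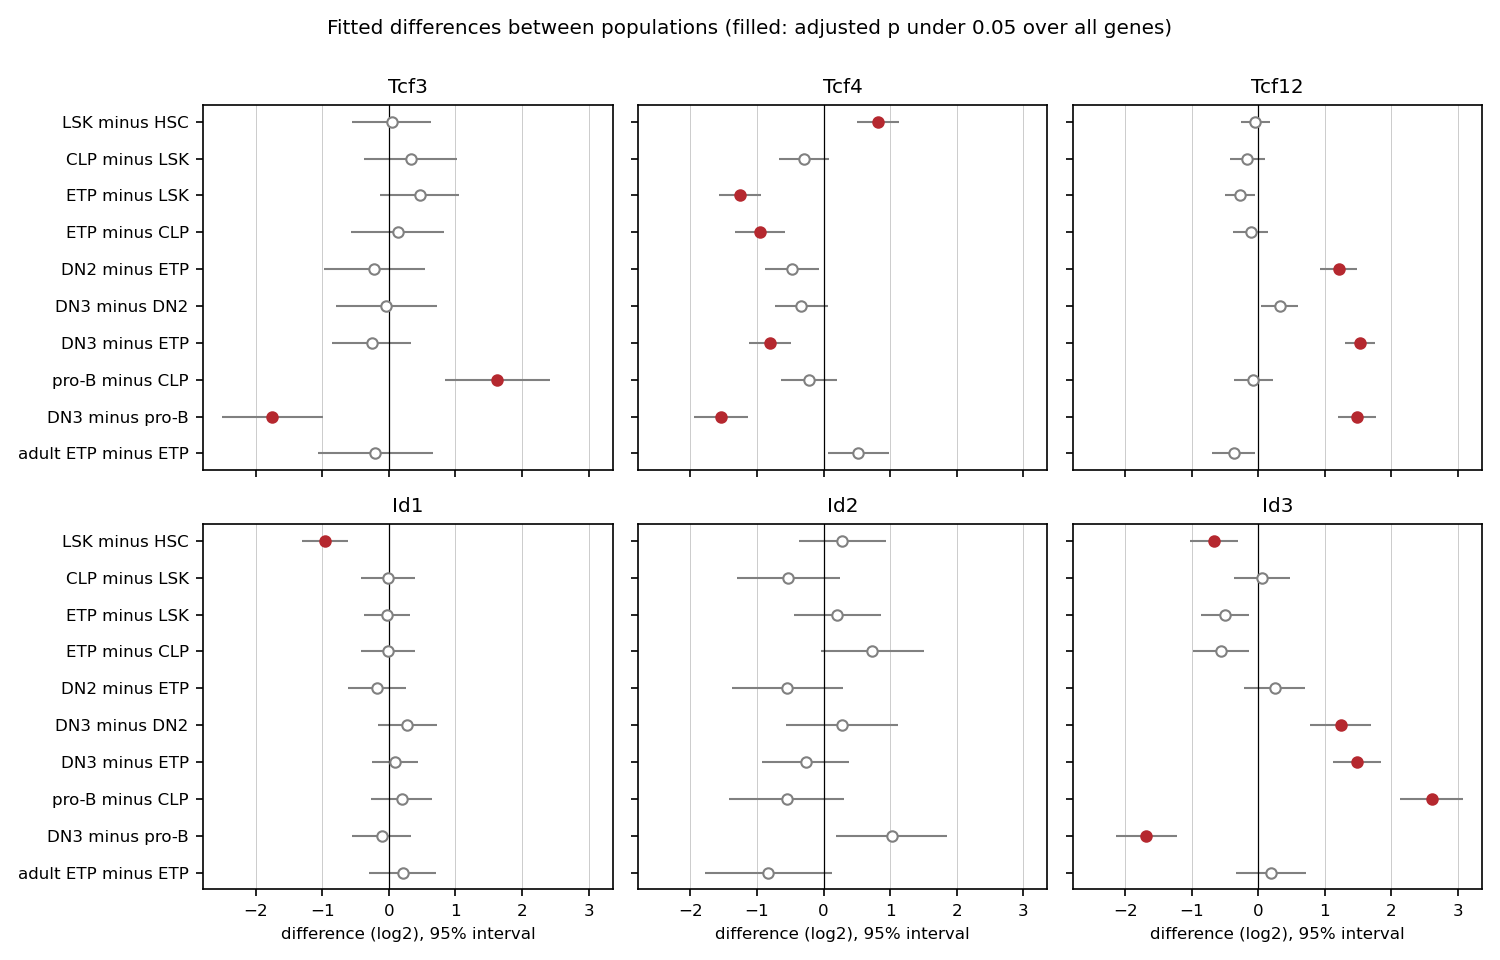
Fitted log2 differences of the 6 genes in the 10 comparisons, with 95% intervals; filled points passed an adjusted p under 0.05 over all genes. Tcf12 passed in DN2 and DN3 against ETP and in DN3 against pro-B, whereas Id2 passed in none.

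Tcf3 stood highest in pro-B cells, and both comparisons with pro-B called it. On the pro-B arrays it read 10.14, 10.11 and 9.08, on the CLP arrays 8.50, 7.72, 8.42 and 7.95, and in DN3 of set 2 it averaged 7.84 ± 0.14 (SD, n = 3). The lowest pro-B array lay above the highest CLP and DN3 arrays. Tcf3 was higher in pro-B than in CLP by 1.63 ± 0.39 (SE; adjusted p = 0.00276), a 3.10-fold difference, and lower in DN3 than in pro-B by a log2 difference of -1.75 ± 0.37 (adjusted p = 0.000620). The spread of this probe set was wide elsewhere. In set 1 the HSC arrays ran from 7.39 to 8.93, the LSK arrays from 7.44 to 8.72, the DN2 arrays from 7.87 to 9.08 and the DN3 arrays from 7.65 to 9.18, and ETP averaged 8.74 ± 0.24 (SD, n = 3). In set 2 HSC ran from 7.30 to 8.28, LSK from 8.05 to 8.23 and ETP from 7.90 to 8.80, and both adult ETP arrays read 8.08. All 5 populations of set 1 overlapped their neighbours in the order of the means, so no order among them can be read. From ETP to DN3 Tcf3 differed by -0.25, with a 95% interval from -0.85 to 0.34.

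The other Tcf3 probe sets read the pro-B difference too. All 3 were called higher in pro-B than in CLP, by 2.01 (1426297_at), 1.63 and 1.40 (1452542_x_at), and all 3 were called lower in DN3 than in pro-B. The tighter probe set 1426297_at ran from 7.89 to 8.25 in CLP and averaged 8.22 in DN3 of set 2 and 10.01 in pro-B, with an SD of 0.10 over the pro-B arrays. It was also called from HSC to LSK, at 0.64 ± 0.15 (adjusted p = 0.00173), where the probe set used for the gene differed by 0.04, with an interval from -0.55 to 0.64.

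Tcf4 was highest in LSK and CLP and was lower at each called step into and through the thymus. In set 1 it read 9.20, 9.42 and 9.51 in HSC, 10.48, 10.74 and 10.73 in LSK, 9.03, 8.74 and 9.21 in ETP, 8.45, 8.96 and 8.53 in DN2, and 8.36, 8.48 and 8.21 in DN3. In set 2 it read 10.57, 10.79 and 10.29 in HSC, 10.96, 10.90 and 10.88 in LSK, and 11.25, 10.48, 11.14 and 10.71 in CLP. The same set gave 10.29, 10.05 and 9.88 in ETP, 10.27 and 10.66 in adult ETP, 9.44, 8.90 and 8.94 in DN3 and 10.59, 10.68 and 10.74 in pro-B. LSK arrays lay above all ETP arrays in both sets, and ETP arrays above all DN3 arrays. Neighbours in the set 2 order LSK, CLP, pro-B, HSC, adult ETP and ETP overlapped, and only DN3 stood clear below.

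Tcf4 rose from HSC to LSK by 0.82 ± 0.16 (adjusted p = 0.000110). The size differed between sets, with 1.27 in set 1 and 0.36 in set 2, and in set 2 alone the call was lost (adjusted p = 0.277). From LSK to ETP Tcf4 fell by a log2 difference of -1.25 ± 0.16 (adjusted p = 1.07e-06), with -1.66 in set 1 and -0.84 in set 2, and this call held in all 27 other settings tried. From CLP to ETP the difference was -0.95 ± 0.18 (adjusted p = 0.00113), which was lost when these populations were fitted alone (-0.82, adjusted p = 0.0713). From ETP to DN3 Tcf4 fell by -0.81 ± 0.16 (adjusted p = 0.000196), while the steps from ETP to DN2 (-0.48, interval -0.88 to -0.07) and from DN2 to DN3 (-0.33, interval -0.74 to 0.07) were not called. Tcf4 was lower in DN3 than in pro-B by -1.54 ± 0.20 (adjusted p = 4.25e-07), and pro-B and CLP differed by -0.22 (interval -0.64 to 0.20). Of 8 measured dendritic markers, 4 were called higher and 1 lower from HSC to LSK, beside 14.5% and 11.6% of all genes. From ETP to DN3 1 was higher and 4 were lower (6.46% and 9.60%). From LSK to ETP 2 were higher and 1 lower (1.59% and 1.91%), as from CLP to ETP (1.75% and 1.01%). In DN3 against pro-B 3 were higher and 1 lower (9.11% and 14.3%). Their part in the Tcf4 differences was not tested.

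The Tcf4 probe set used here carries the suffix by which the array maker marks probes shared with other transcripts. Of the 6 Tcf4 probe sets, 5 were called higher in LSK than in HSC and the same number lower in ETP than in LSK and in ETP than in CLP. In DN3 against ETP 4 were called lower, and in DN3 against pro-B 5. The remaining probe set, 1416725_at, averaged 3.83 over all arrays and was called nowhere. In pro-B against CLP 3 of the 6 were called lower, at -0.51 (1416723_at), -1.01 (1434148_at) and -0.51 (1434149_at), although the probe set used for the gene was not, so that call depends on the probe set.

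Tcf12 was high in DN2 and DN3 and lower, within a narrow range, in the other populations. In set 1 it read 8.99, 9.44 and 9.38 in HSC, 9.12, 9.33 and 9.26 in LSK, 8.51, 8.85 and 9.09 in ETP, 10.01, 10.13 and 10.22 in DN2, and 10.31, 10.54 and 10.53 in DN3. In set 2 the DN3 arrays read 10.46, 10.16 and 10.40 and the ETP arrays 8.80, 8.86 and 9.12, while pro-B stood at 8.88, 8.83 and 8.90. The other arrays of set 2 ran from 8.78 to 9.32 in HSC, 8.98 to 9.11 in LSK, 8.74 to 9.16 in CLP and 8.32 to 8.61 in adult ETP. Every DN2 and DN3 array lay above every other array of its set. Tcf12 rose from ETP to DN2 by 1.21 ± 0.14 (adjusted p = 1.26e-07), a 2.31-fold difference, and from ETP to DN3 by 1.53 ± 0.11 (adjusted p = 7.42e-13), with 1.64 in set 1 and 1.41 in set 2. It was higher in DN3 than in pro-B by 1.49 ± 0.14 (adjusted p = 5.67e-10). These 3 calls held in every other setting tried. Between DN2 and DN3 the arrays did not overlap (0.32, interval 0.04 to 0.60), but the difference did not pass over all genes (adjusted p = 0.181).

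All 5 Tcf12 probe sets were called higher in DN3 than in ETP, from 1.49 to 2.43, and all 5 higher in DN3 than in pro-B. From ETP to DN2 4 of 5 were called. The probe sets 1439209_at and 1439619_at were also called from DN2 to DN3, at 1.32 and 0.98, and 1439209_at was called lower in LSK than in HSC, at -1.15 ± 0.30 (adjusted p = 0.00376). The other 4 Tcf12 probe sets were not called there.

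Among the Id genes, Id1 had its highest mean in HSC in both sets and was called only in the step from HSC to LSK. It read 6.15, 6.27 and 6.77 on the HSC arrays of set 1 and 4.95, 5.07 and 5.73 on the LSK arrays, and in set 2 it read 6.36, 6.88 and 6.02 in HSC and 5.61, 5.73 and 5.64 in LSK. HSC arrays lay above all LSK arrays in both sets. Id1 was lower in LSK by a log2 difference of -0.95 ± 0.17 (adjusted p = 4.38e-05), a 1.94-fold difference. The means of set 1 were 5.25 in LSK, 4.96 in ETP, 4.97 in DN2 and 5.07 in DN3, and the means of set 2 ran from 5.66 in LSK to 5.99 in DN3. Neighbours overlapped throughout this range, and in set 2 the lowest HSC array also lay below the highest arrays of DN3, ETP, adult ETP and pro-B. The mean of Id1 over all arrays was below that of the median gene, so a filter at the median drops it.

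The calls of Id2 differed by probe set. The probe set used for the gene, 1422537_a_at, was called in none of the 10 comparisons and spread widely, from 5.18 to 7.55 over the LSK arrays of set 1 and from 5.86 to 7.70 over the HSC arrays of set 2. Its lowest mean in set 2 was in pro-B, at 5.73 ± 0.21 (SD, n = 3), and DN3 exceeded pro-B by 1.02 ± 0.41 (adjusted p = 0.0700). The second probe set, 1435176_a_at, was tighter and was called in 5 comparisons. In set 2 it read 7.60, 8.07 and 7.63 in ETP, 6.85, 6.64 and 6.79 in DN3, 6.16 and 5.53 in adult ETP, and 4.66, 4.43 and 4.45 in pro-B. Its CLP arrays ran from 6.10 to 7.15, its LSK arrays from 6.14 to 6.63 and its HSC arrays from 5.49 to 6.10. ETP was thus the highest population of that set on this probe set and pro-B the lowest, each without overlap. In set 1 the order differed: DN3 ran from 6.53 to 7.44 and overlapped ETP at 6.57 to 6.72, and DN3 minus ETP was 0.25 in set 1 and -1.01 in set 2, not called over both (adjusted p = 0.317).

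On 1435176_a_at Id2 rose from HSC to LSK by 0.89 ± 0.23 (adjusted p = 0.00351 over all probe sets) and from LSK to ETP by 1.02 ± 0.23 (adjusted p = 0.00587). It was lower in pro-B than in CLP by -2.10 ± 0.30 (adjusted p = 7.20e-06) and higher in DN3 than in pro-B by 2.61 ± 0.29 (adjusted p = 3.36e-08). It was also lower in adult ETP than in ETP, by -1.66 ± 0.33 (adjusted p = 0.0191), on 2 adult arrays. The third Id2 probe set, 1453596_at, averaged 3.40 and was called in none. Natural killer and innate lymphoid markers, the cell types that depend on Id2, stayed low: their list mean ran from 4.63 to 5.11 per array in set 1 and from 5.09 to 5.71 in set 2, with 1 to 3 of 9 markers above the array median in each population. Within set 2 that mean was 5.46 to 5.67 in ETP and 5.09 to 5.23 in pro-B, and it was highest in adult ETP, at 5.61 to 5.71, where this probe set read lower than in ETP. From HSC to LSK, where the probe set rose, 3 of the 9 markers were called higher and 1 lower. Of all genes, 14.5% were higher and 11.6% lower in that step. The part of these markers in the Id2 differences was not tested.

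**Figure D3:**
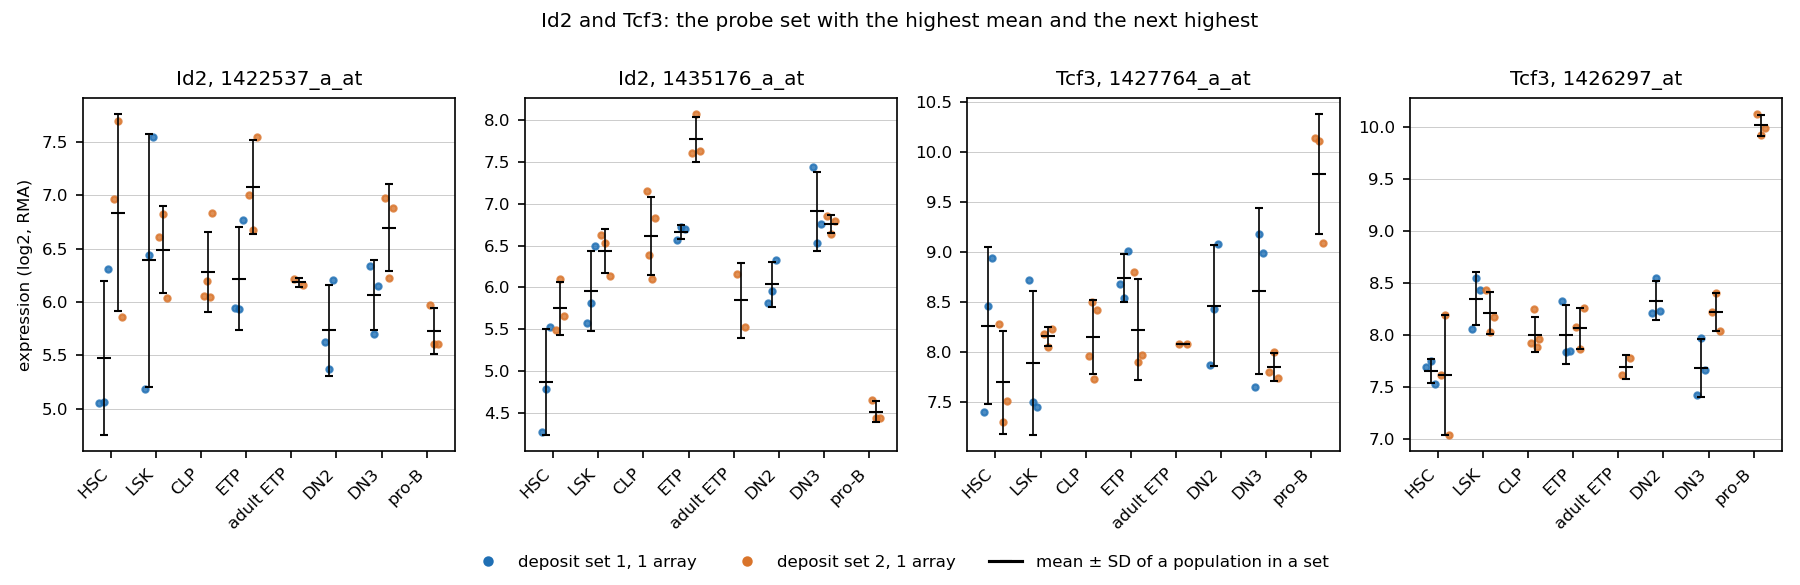
Log2 expression by array, set and population for the leading and the second probe set of Id2 and of Tcf3, with mean ± SD. On both Id2 probe sets ETP lies above pro-B in set 2 without overlap. The gap is wider on 1435176_a_at (7.60 to 8.07 against 4.43 to 4.66) than on 1422537_a_at. Both Tcf3 probe sets are highest in pro-B.

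Id3 was highest in pro-B cells, and within the thymus it was higher in DN3 than in ETP and DN2. In set 2 it read 9.45, 9.17 and 8.87 in pro-B, 7.22, 7.10 and 7.57 in DN3, and 6.57, 6.76, 6.47 and 6.42 in CLP. ETP stood at 6.11, 6.16 and 5.70, adult ETP at 6.13 and 6.25, and LSK at 6.32, 6.51 and 6.36. HSC of set 2, at 6.80 to 7.96, had the second highest mean (7.44) and overlapped DN3 (7.30). In set 1 Id3 read 4.79, 5.37 and 5.24 in ETP, 5.33, 5.62 and 5.16 in DN2 and 7.02, 6.70 and 6.64 in DN3. Pro-B lay above every other array of set 2, and DN3 lay above every ETP and DN2 array of its set. Id3 rose from CLP to pro-B by 2.61 ± 0.23 (adjusted p = 7.69e-10), a 6.09-fold difference. It rose from ETP to DN3 by 1.48 ± 0.18 (adjusted p = 6.57e-08), with 1.66 in set 1 and 1.31 in set 2, and these calls held in every other setting tried. Within the thymus the step from DN2 to DN3 was called, at 1.24 ± 0.22 (adjusted p = 0.000409), and ETP and DN2 differed by 0.25 (interval -0.21 to 0.70). DN3 stayed below pro-B by a log2 difference of -1.68 ± 0.22 (adjusted p = 8.09e-07).

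Id3 was also lower in LSK than in HSC, by -0.66 ± 0.18 (adjusted p = 0.00429), but not in each set alone. In set 1 the HSC arrays read 5.64, 6.27 and 6.07 and overlapped the LSK arrays at 5.75, 5.44 and 5.95. In set 2 the HSC arrays read 7.96, 7.55 and 6.80 and lay above the LSK arrays. The difference was -0.28 in set 1 (adjusted p = 0.457 in that set alone) and -1.04 in set 2. Stroma and endothelium markers, 9 genes, overlapped between HSC and LSK in set 1 and lay higher in HSC in set 2. Their mean per array was 5.21, 6.54 and 5.30 on the HSC arrays of set 1, against 4.83 to 5.73 in LSK. In set 2 it was 8.11, 7.50 and 6.68 in HSC, against 5.91 to 5.94 in LSK. Of the 9, 5 lay above the array median in both HSC and LSK of set 1. In set 2 this held for 7 in HSC and 3 in LSK. From HSC to LSK 1 of the 9 was called higher and 4 lower (median -1.67), beside 14.5% and 11.6% of all genes. The endothelial cadherin gene Cdh5 averaged 3.36 in HSC and 3.17 in LSK of set 1, and 8.12 in HSC and 4.36 in LSK of set 2. Other genes of the list differed in pattern. Kdr averaged 4.13 in HSC and 3.64 in LSK of set 1, and 8.34 and 5.43 in set 2. Emcn had the higher mean in HSC in both sets, at 7.82 against 6.35 and 9.10 against 5.83. Pecam1 had the lower mean in HSC in both, at 7.47 against 7.96 and 8.26 against 8.55. Without HSC replicates 2, 4 and 5, which stood highest within their set on this list, 3 HSC arrays were left and the Id3 difference was -0.24 and was not called (adjusted p = 0.361). The Id1 difference was as large without them, at -0.96 (adjusted p = 0.000994), and Tcf4 differed by 0.99 (adjusted p = 0.000133). HSC replicate 6 of set 2, which was kept, still lay above the LSK arrays of its set on the stroma list, at 6.68. The 7 immediate early genes averaged 10.11 to 10.39 per array in HSC of set 1 and 9.33 to 11.04 in HSC of set 2, and 9.41 to 9.98 and 8.04 to 8.70 in LSK, and their part in the Id1 and Id3 differences was not tested.

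The B and T branches were compared directly by setting the step from CLP to pro-B against the step from ETP to DN3, a contrast added after the data were seen. It called 3 of 6 members, beside 18.9% of all genes. Tcf3 changed more in the B step, by 1.89 ± 0.48 (adjusted p = 0.00516), and Tcf12 more in the T step, by -1.60 ± 0.18 (adjusted p = 6.13e-08). Id3 rose in both, and more in the B step, by 1.12 ± 0.29 (adjusted p = 0.00576). The contrast was 0.59 for Tcf4 (adjusted p = 0.116), 0.10 for Id1 (adjusted p = 0.861) and -0.29 for Id2 (adjusted p = 0.771). It read only the leading probe set of each gene. From CLP to pro-B 1 of 3 Id2 and 3 of 6 Tcf4 probe sets were called lower. From ETP to DN3 0 of 3 Id2 and 4 of 6 Tcf4 probe sets were. Late neutrophil markers were spread over the arrays of the B step: the mean of 8 genes per array ran from 5.49 to 8.36 in CLP and from 6.45 to 7.37 in pro-B. In DN3 of set 2 it ran from 4.95 to 5.30. Of the 8 markers, 7 were called lower in DN3 than in pro-B (median -1.61), beside 14.3% of all genes. That comparison had the most called members. A fit was made without 5 arrays that stood high within their population, which were CLP replicates 1 and 2, HSC replicate 5 and LSK replicates 1 and 3. It called the same number of members, 2 of 6, from CLP to pro-B, beside 11.4% of all genes. HSC replicates 1 and 2 of set 1 stayed in, at 5.52 and 5.32 against 4.03 for replicate 3. All pro-B arrays stayed in too, so the part of these markers in the pro-B differences was not tested.

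The populations were also tested for a different pattern in the deposit sets. No member was called (limma F-test over HSC, LSK, ETP and DN3, 116 of 18193 genes called, 0.638%), with adjusted p-values from 0.207 for Tcf4 to 0.951 for Tcf12. At an unadjusted p under 0.05, 2 of 6 passed, which were Tcf4 (0.00432) and Id1 (0.0169). The share of all genes at that threshold is not given, so this count cannot be set against it.

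Known targets of E proteins in lymphoid progenitors were followed beside the factors. The list was drawn up with earlier results of these arrays known, so its direction is not independent evidence, and 18 of its 19 genes were measured. From HSC to LSK, where Tcf4 rose and Id1 and Id3 fell, 14 of 18 were higher and 1 lower. Their median was 1.94 against 0.01 over all genes. Of all genes, 14.5% were higher and 11.6% lower in this step. Dntt, the terminal transferase, led at 8.04, followed by Il7r at 7.06, which is part of the LSK gate. From LSK to ETP, where Tcf4 fell, 2 targets were higher and 14 lower, with a median of -1.85 against 0.01, beside 1.59% and 1.91% of all genes. The surrogate light chain gene Vpreb1 (-4.14) and the recombinase gene Rag1 (-4.08) fell most. From CLP to ETP 2 were higher and 10 lower (median -1.45 against -0.02, and 1.75% and 1.01% of all genes), with Rag1 at -4.14 and the B cell coactivator Pou2af1 at -3.46. Between LSK and CLP 0 were higher and 1 lower (0.0330% and 0.539% of all genes), the surrogate light chain gene Igll1 at -1.42. The B lineage markers, a list that shares all its genes but Cd79b with the targets, moved with them: 6 of 6 measured were higher from HSC to LSK (median 1.96), 6 of 6 lower from LSK to ETP (median -2.06) and 4 of 6 lower from CLP to ETP. All 6 measured cell cycle genes were also higher from HSC to LSK (median 1.99). The part of these lists in the target counts was not tested.

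In the thymus most called targets were higher at the later stage. From ETP to DN2, the step in which Tcf12 rose, 7 of 18 targets were higher and 1 lower (median 0.64 against -0.02, and 2.45% and 2.68% of all genes), with Pou2af1 at 4.11 and Ptcra, the pre-T-cell receptor alpha chain, at 3.81. The 1 lower gene was the chemokine receptor gene Ccr9, at -3.35. From DN2 to DN3, where Id3 rose, 5 were higher and 1 lower (median 0.31 against 0.05, and 2.29% and 3.83%), with Ptcra at 3.14 and Pou2af1 at -2.71. From ETP to DN3, where Tcf12 and Id3 rose and Tcf4 fell, 11 were higher and 1 lower (median 1.30 against 0.05, and 6.46% and 9.60%). Among them were Ptcra at 6.94 and Rag1 at 5.87. Ptcra averaged 3.86 in ETP, 7.84 in DN2 and 11.59 in DN3 of set 1. From CLP to pro-B, where Tcf3 and Id3 rose, 8 were higher and 3 lower (median 0.44 against 0.04, and 10.4% and 6.67%). Among them were Igll1 at 6.23 and the B lineage factor Pax5 at 3.54. Between pro-B and DN3, 7 targets were higher and 7 lower in DN3 (median -0.09 against -0.04, and 9.11% and 14.3%). Ptcra was higher there by 6.72, and Cd79a, a signalling chain of the B cell receptor, was lower by -5.73. All 6 measured T lineage markers, Ptcra among them, were higher in DN2 and in DN3 than in ETP, and all 6 B lineage markers were higher in pro-B than in CLP. In adult ETP 1 target was higher than in ETP, Dntt at 1.93, and 0 were lower, beside 0.187% and 0.253% of all genes. The part of the 6 members in the target counts was not tested.

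The counts of targets moved by at most 2 in either direction without the 5 arrays named above for neutrophil markers, and by at most 1 without HSC replicates 2, 4 and 5, named for stroma markers. From HSC to LSK these fits gave 13 higher and 1 lower, and 14 higher and 1 lower. They called 21.4% and 22.7% of all genes in that step. From CLP to ETP the first gave 2 higher and 8 lower.

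Other basic helix-loop-helix factors and cofactors that dimerise with E proteins or join their complexes were read beside the share of all genes called in the same step. Of 16 measured genes, 1 was higher and 4 were lower from HSC to LSK (median -0.19 against 0.01), where 14.5% of all genes were higher and 11.6% lower, led by the stem cell factor Tal1 at -2.16 and its LIM partner Lmo2 at -1.98. Id4, the remaining Id gene, was lower at -1.32, with SDs of 1.72 and 1.45 over the HSC arrays of sets 1 and 2. From ETP to DN2 1 was lower (2.68% of all genes), Lmo2 at -4.42 (adjusted p = 2.56e-12). From DN2 to DN3 2 were lower (3.83%), led by Lyl1, a relative of Tal1, at -4.10 (adjusted p = 6.27e-13). These are the steps in which Tcf12 and then Id3 rose. Lmo2 averaged 8.88 in ETP, 4.43 in DN2 and 3.51 in DN3 of set 1, and Lyl1 8.82, 8.39 and 3.98. From ETP to DN3 1 was higher (6.46% of all genes) and 4 were lower (9.60%), with Lmo2 at -4.88 and Lyl1 at -4.27. In pro-B 1 was higher (10.4%) and 2 were lower (6.67%) than in CLP, the latter Lmo2 at -1.50 and Tal1 at -1.45. DN3 had 0 higher (9.11%) and 4 lower (14.3%) than pro-B, led by Lyl1 at -4.64 and Lmo2 at -4.28. LSK to ETP had 1 lower (1.91%), Lmo2 at -0.93, and CLP to ETP 1 lower (1.01%), Tal1 at -0.90. LSK to CLP (0.572% called) and ETP to adult ETP (0.440%) had 0 called. In the steps from HSC to LSK and from pro-B to DN3 the totals, 5 and 4 of 16, were close to the shares of all genes called, 26.1% and 23.4%. Without HSC replicates 2, 4 and 5 the step from HSC to LSK had 0 higher and 3 lower (22.7% of all genes called). Without the 5 arrays named for neutrophil markers it had 0 higher and 6 lower (21.4%). The higher call, Lyl1 at 0.67 (adjusted p = 0.0124), thus held in neither. Without those 5 arrays DN3 had 2 higher and 5 lower than pro-B (23.0% of all genes called). LSK to ETP had 0 called without them (2.80%), against 2 lower without the 3 HSC arrays (3.72%).

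Genes that act upstream of Id genes, among them Egr factors and BMP and TGF-beta receptors and Smads, went both ways. Of 15 measured, 1 was higher (14.5% of all genes) and 4 were lower (11.6%) from HSC to LSK (median -0.25 against 0.01), with Egr1 at -2.10 and the BMP receptor gene Bmpr2 at -1.35. Egr1, which encodes an activator of Id3, fell further from LSK to ETP, at -3.42, where 0 of the list were higher (1.59% of all genes) and 2 lower (1.91%). It was higher in DN3 than in DN2 by 3.08 (adjusted p = 0.000611), where 2 were higher (2.29%) and 1 lower (3.83%). It was also higher in DN3 than in ETP, by 1.58 (adjusted p = 0.0128), where 2 were higher (6.46%) and 6 lower (9.60%). Egr1 averaged 4.69 in DN2 and 7.17 in DN3 of set 1. The Id3 arrays of DN3 lay above those of DN2 in the same step. Egr1 is itself 1 of the 7 immediate early genes. The mean of that list ran from 5.62 to 6.65 per array in DN2 and from 5.92 to 6.64 in DN3 of set 1. From LSK to ETP and from ETP to adult ETP the list moved with Egr1. In set 1 it ran from 9.41 to 9.98 in LSK and from 6.56 to 8.11 in ETP. In set 2 it ran from 6.38 to 6.83 in ETP and from 7.86 to 8.52 in adult ETP. The part of Egr1 and of the list in the Id3 differences was not tested. In pro-B Egr1 differed from CLP by -1.20 without a call, and of the list 1 was higher (10.4%), Tgfb1 at 1.13, and 4 were lower (6.67%), led by Smad4 at -1.15. In adult ETP 1 gene was higher than in ETP (0.187% of all genes), Egr1 at 2.84 (adjusted p = 0.0429), with Id3 differing by 0.19 (interval -0.33 to 0.71). From CLP to ETP 1 was higher (1.75%), the TGF-beta receptor gene Tgfbr2 at 0.79, and 1 lower (1.01%), Egr1 at -2.79, and from LSK to CLP 0 were called. From ETP to DN2 0 were higher (2.45%) and 3 lower (2.68%), led by Tgfb1 at -1.31 and Smad7 at -0.97. DN3 had 2 higher (9.11%) and 3 lower (14.3%) than pro-B, with Tgfb1 at -2.21 and Tgfbr1 at 1.93. Without the 5 arrays named for neutrophil markers, LSK to ETP and CLP to ETP had 1 lower each and 0 higher.

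**Figure D4:**
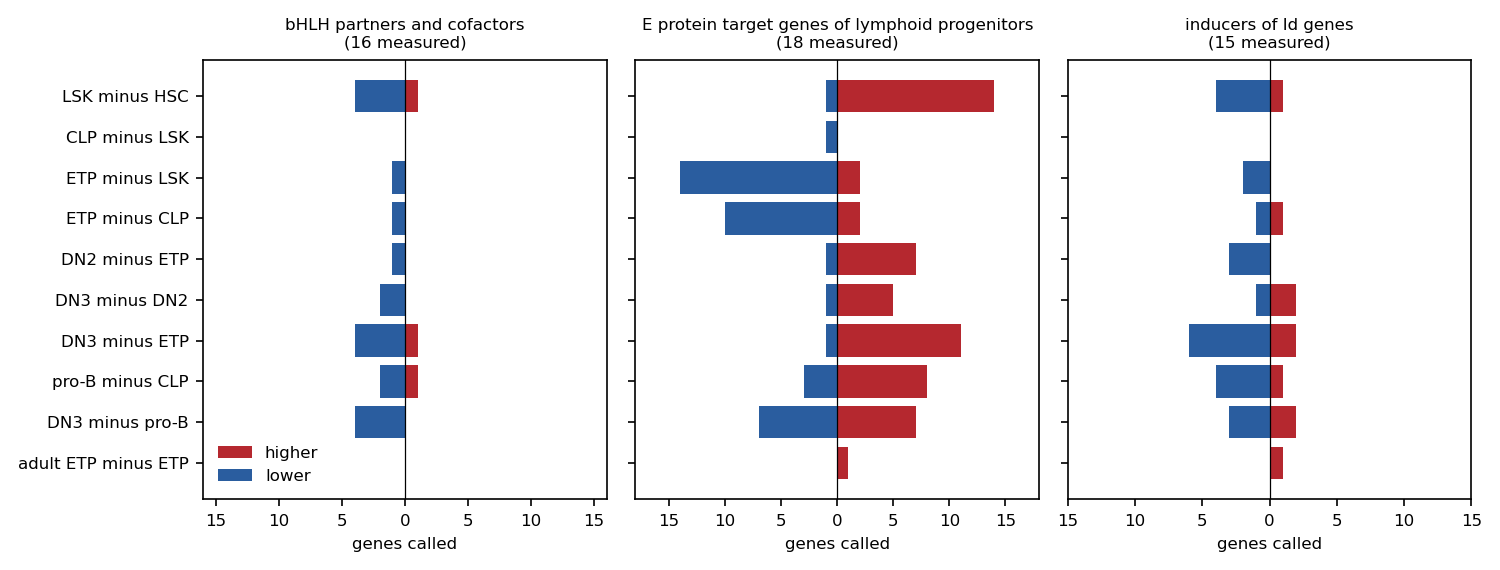
Number of genes called higher (right) or lower (left) in each comparison, for partners and cofactors (16 measured), E protein targets (18) and upstream genes of Id genes (15). Targets are mostly higher in LSK than in HSC (14 to 1), mostly lower in ETP than in LSK (2 to 14) and mostly higher in DN3 than in ETP (11 to 1).

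Genes with the most similar profile were ranked among 3069 genes whose population means spanned at least 1 on the log2 scale in both sets, by the lower of Pearson's r over the 15 arrays of set 1 and the 21 arrays of set 2. Arrays of a population share their cells, so these values describe likeness only. Tcf12 had the closest neighbours, with Gbp8 at 0.934 and 0.928, Ptprf at 0.921 and 0.924, and Nck2 at 0.914 and 0.910. Tcf4 was followed by Tcf7l2 at 0.894 and 0.913, Pnp at 0.878 and 0.902, and Tpm2 at 0.896 and 0.862. Id1 was followed by Ttc39b at 0.859 and 0.827, S100a16 and Dmxl2, and Id3 by Spib at 0.786 and 0.795, Sit1 and A630023P12Rik. Tcf3 and Id2, the members with the widest spread within populations on the probe sets used, had no close neighbour: their nearest were Pdik1l at 0.547 and 0.592 and Itga9 at 0.537 and 0.544.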

How the data were processed

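The authors deposited log2 expression values made with RMA (background correction, normalization between arrays and summary of probes), per the submitters' processing notes with no version stated. The log base is not stated, and the values behave as log2. RNA was taken with Trizol, amplified and biotin-labelled, per the labels' protocols. Of 45101 probe sets, 64 controls, 932 with several genes and 9160 with no listed gene were left out. Each gene was read from its brightest probe set, by the mean of the 36 arrays, and probe sets of a member are also given singly. No value was missing. The number of arrays, which carry no depth, limits the precision.

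Differences were fitted with limma 3.58.1 in R 4.3.3 (lmFit, eBayes) on population and deposit set over all 36 arrays, with Benjamini-Hochberg adjustment over 18193 genes, or 34945 probe sets where a probe set is named. Levels and promoters were handled in Python 3.11.15 (pandas 2.3.3, numpy 2.4.6) and plotted with matplotlib 3.10.9. The fit was tested on simulated data. The text names all 6 members and, per member, the 3 genes of most similar profile. It also names up to 2 called genes of largest difference per list and comparison. Cdh5, Kdr, Emcn, Pecam1, Il2ra, Ebf1, Flt3, Cd48, Id4 and Ccr9 were chosen after their values were seen. So were Igll1 between LSK and CLP and Egr1 from CLP to pro-B. The members and lists were chosen with earlier results of these data known. Alternatives changed the set term, the arrays, the probe set, the scaling, the filter, the fold threshold and the weights, and left out each array in turn. Fits without 5 arrays chosen for high neutrophil markers within their population were added after seeing the data. Pro-B arrays and HSC replicates 1 and 2, also high, were kept in them. Fits without 3 HSC arrays chosen for stroma markers, and the contrast of the B and T steps, were also added after seeing the data. Same-numbered arrays of a set did not deviate together (mean correlation 0.00188 over 55 pairs, against -0.000638 over 206 pairs of other numbers).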

Additional observations from a re-analysis of the deposited data

How the results depend on the processing

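Leaving out each array in turn left every count of called members as it was: 3 for LSK against HSC, 0 for CLP against LSK, 1 for ETP against LSK, ETP against CLP, DN2 against ETP and DN3 against DN2, 3 for DN3 against ETP, 2 for pro-B against CLP, 4 for DN3 against pro-B and 0 for adult ETP against ETP. No called difference changed sign in any setting tried. At the 2-fold threshold 0 members were called for LSK against HSC and for ETP against CLP, and 2 for DN3 against ETP, where Tcf4 was lost. Against a 1.5-fold null (treat) the counts were 0 for LSK against HSC, ETP against CLP and DN3 against DN2, 1 for pro-B against CLP, and 2 for DN3 against ETP, again without Tcf4. With only the 2 populations fitted, ETP against LSK gave 2 (Id3 was added, adjusted p = 0.0443) and ETP against CLP 0. With the mean of the probe sets DN3 against DN2 gave 2 and pro-B against CLP 4, the latter with Tcf4 and Id2 lower, and LSK against HSC gave 4 (Tcf12 added) and DN3 against pro-B 5 (Id2 added). With the most variable probe set ETP against LSK gave 2, DN3 against DN2 2 and adult ETP against ETP 1, the first and last through Id2, and Id2 was also added in LSK against HSC (4), pro-B against CLP (3) and DN3 against pro-B (5). With array weights ETP against LSK gave 2, DN2 against ETP 2 and adult ETP against ETP 1. Without HSC replicates 2, 4 and 5, ETP against LSK gave 2 and ETP against CLP 2, with Id3 added in both (adjusted p = 0.0260 and 0.0169). Of all genes, 3.72% and 2.71% were called in these comparisons of that fit. Id3 in LSK against HSC also lost its call without the set term (adjusted p = 0.117). Id2 in DN3 against pro-B was called with only the 2 populations (adjusted p = 0.0287), after quantile normalization (0.0341), without genes below the median level (0.0466) and without the 5 arrays left out for neutrophil markers (0.0235). In the settings that lost or added calls the cause was not tested. Apart from the fit without HSC replicates 2, 4 and 5, shares of all genes called are not given here, so those counts stand without them.

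The replicate numbers did not pair the arrays (3 of 55 same-numbered pairs correlated over 0.1). With the replicate block, fitted for the 6 comparisons that share numbers within a set, the counts were 3 for LSK against HSC, 1 for ETP against LSK, 1 for DN2 against ETP, 1 for DN3 against DN2, 3 for DN3 against ETP and 2 for pro-B against CLP, and all 36 single results kept their call. For the other 4 comparisons no paired analysis was possible because their populations share fewer than 2 numbers within a set.

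Precision is limited by the number of arrays and by the signal. Id1 and the leading Id2 and Id3 probe sets lie close to the middle of the array range and the adult comparison rests on 2 arrays.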
